A study of Mus musculus with 8 samples.

Results

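S100a8, S100a9 and Anxa1 are 3 of the 10970 genes counted in single mouse neutrophils, and they were chosen by name. S100a8 and S100a9 encode the subunits of calprotectin, and Anxa1 encodes annexin A1. All 3 had UMIs in every sample, and all 3 were among the 8478 genes that passed the filter on low counts. The neutrophils came from young adult male C57BL/6J mice without genetic modification and were enriched from peripheral blood (PB) or bone marrow (BM) by removal of other cells. The mice had received PBS or LPS (lipopolysaccharide, a bacterial endotoxin that provokes systemic inflammation) intraperitoneally, the latter at 0.5 mg/kg, with 0 h written in the titles of the PBS samples and 4 h in those of the LPS samples, although the methods give an interval of 4 h after either injection. The cells were picked one by one and sequenced by SCRB-seq, which tags every captured transcript with its own short barcode (UMI), so amplified copies of a molecule are counted 1 time. Each of the 4 groups, named PBS-primed PB, LPS-primed PB, PBS-primed BM and LPS-primed BM neutrophils, had 2 labelled samples of 83 to 92 cells (711 cells in all). A further 710 cells on plates called batch 6 carry a group but match no labelled sample. Their plates are given as pooled values and entered a test only in the fits of both batches. How many mice gave the cells of a sample is not stated, so p-values measure the spread between these samples, which may be technical.

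Calprotectin is a calcium- and zinc-binding heterodimer that fills much of the neutrophil cytosol. When released it starves microbes of metals and acts as a danger signal through Toll-like receptor 4, and inside the cell it delivers arachidonic acid to the NADPH oxidase. Transcripts of both subunits are made mainly while neutrophils mature in the marrow. Annexin A1 is a phospholipid-binding protein, induced by glucocorticoids, that is kept in gelatinase granules, restrains phospholipase A2 and, through formyl peptide receptors, slows the adhesion and migration of neutrophils.

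The calprotectin genes lie together. In mm9, the build of the deposited counts, S100a8 (ENSMUSG00000056054.8) occupies chr3:90472993-90473956 on the plus strand and S100a9 (ENSMUSG00000056071.6) chr3:90496554-90499643 on the minus strand, both with 3 exons. Their ends face each other across 22597 bases in which 0 other genes are annotated. Of 14 other S100 genes of the family list found in the annotation, 11 are on chromosome 3 as well. Anxa1 (ENSMUSG00000024659.7) occupies chr19:20447918-20465434 on the minus strand, with 2 to 14 exons in its annotated transcripts. No annotated gene overlapped any of the 3, so no overlapping or antisense gene of this annotation shares their reads. The 120 bases before each start, from RefSeq on GRCm38.p6 (chr3:90668951-90669070 plus strand, chr3:90695722-90695841 minus strand and chr19:20390672-20390791 minus strand), are shown because the 2 calprotectin genes shared a pattern across the samples that Anxa1 only partly followed. Capitals mark matches to TATAAA (a core promoter element), GAGGAAGT (PU.1), TTNNGNAA (C/EBP) or TTCNNNGAA (STAT) on either strand, which may overlap one another.
S100a8: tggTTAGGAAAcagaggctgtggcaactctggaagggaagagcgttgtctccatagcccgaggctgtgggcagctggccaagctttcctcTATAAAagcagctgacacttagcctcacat
S100a9: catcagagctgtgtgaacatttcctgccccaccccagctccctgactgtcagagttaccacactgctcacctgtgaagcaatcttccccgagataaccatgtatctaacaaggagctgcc
Anxa1: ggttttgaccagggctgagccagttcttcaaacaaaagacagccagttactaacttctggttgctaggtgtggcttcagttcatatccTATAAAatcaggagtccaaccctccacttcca
The letters TATAAA began 30 bases before the start of S100a8 and 32 bases before that of Anxa1, and were not in the 250 bases before S100a9. They occur in 12.4% of 32841 promoters of that length. Within the same 250 bases the C/EBP letters had 1 match for S100a8, 2 for S100a9 and 1 for Anxa1 (36.9% of promoters hold one), the PU.1 letters 1 match for S100a8 and 0 for the others (2.44%), and the STAT letters 0 matches for any of the 3 genes (7.02%). These matches describe the letters and are not evidence of binding.

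S100a8 was the most abundant transcript of every plate, and the calprotectin pair had its lowest share of UMIs in PBS-primed PB neutrophils. Which group was highest depends on the scaling, and was PBS-primed BM by share of UMIs, LPS-primed PB with TMM and LPS-primed BM with spike-ins. As a share of all UMIs, S100a8 took 8.04% and 8.55% for PBS-primed PB, 13.5% and 15.1% for LPS-primed PB, 16.1% and 16.9% for PBS-primed BM and 15.3% and 14.9% for LPS-primed BM neutrophils, 1 value a sample. In the same order S100a9 took 4.08% and 4.42%, 8.69% and 9.34%, 10.3% and 11.5%, and 9.91% and 9.38%. Both PBS-primed PB samples were thus below all 6 others for either gene, and those 6 lay close together. Since a UMI stands for a molecule whatever its length, the ranks can be compared between genes. S100a8 ranked 1 on all 17 plates, counting the 9 of batch 6, and S100a9 ranked 2 on every plate apart from the 2 PBS-primed PB samples, where the nuclear RNA Malat1 came before it. Summed, the pair held 12.5% ± 0.601 of the UMIs (SD, n = 2) for PBS-primed PB, 23.3% ± 1.62 for LPS-primed PB, 27.3% ± 1.43 for PBS-primed BM and 24.8% ± 0.683 for LPS-primed BM neutrophils.

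Anxa1 was a far smaller part of the RNA and separated blood from marrow whether or not LPS had been given. Its share was 0.169% and 0.184% for PBS-primed PB, 0.232% and 0.250% for LPS-primed PB, 0.492% and 0.623% for PBS-primed BM and 0.644% and 0.632% for LPS-primed BM neutrophils. All 4 PB samples were below all 4 BM samples. By UMIs Anxa1 ranked 66 and 53 for PBS-primed PB, 41 and 37 for LPS-primed PB, 16 and 14 for PBS-primed BM and 13 for both LPS-primed BM samples. Depth was 3240559 to 8361677 UMIs per labelled sample, and the 95% Wilson interval of the S100a8 share reached at most 0.0304 percentage points to either side, which covers counting error only.

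On the batch 6 plates PBS-primed PB was again lowest for the pair, while both LPS-primed PB plates were above the LPS-primed BM plate in S100a8. PBS-primed PB plates had S100a8 at 6.51% and 10.1%, LPS-primed PB plates at 16.9% and 17.5%, PBS-primed BM plates at 16.6% to 21.0% and the LPS-primed BM plate at 16.5%. S100a9 was at 3.68% and 5.55%, at 11.7% and 9.71%, at 9.88% to 12.0% and at 10.5%. For S100a8 and S100a9 the LPS-primed PB plates were above the PBS-primed ones, which only describes 2 plates against 2. Anxa1 was at 0.124% and 0.251% for PBS-primed PB, 0.180% and 0.185% for LPS-primed PB, 0.483% to 0.881% for PBS-primed BM and 0.869% for LPS-primed BM plates. Here the LPS-primed PB plates lay between the 2 PBS-primed ones, while every PB plate was again below every BM plate.

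**Figure D1:**
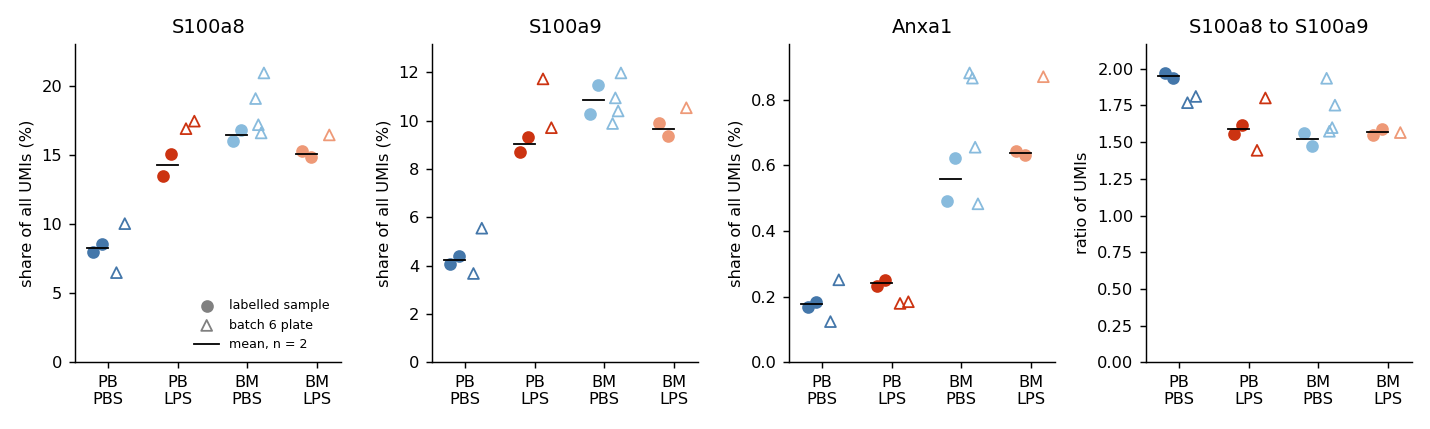
Share of all UMIs (%) of S100a8, S100a9 and Anxa1, and the ratio of S100a8 to S100a9 UMIs, for each labelled sample (filled circles, black line the mean of 2) and each batch 6 plate (open triangles) in the 4 groups. In batch 6, 2 sets of PBS-primed BM cells that share well names are drawn separately. PBS-primed PB neutrophils are lowest for the calprotectin genes, all PB plates are below all BM plates for Anxa1, and the ratio overlaps between groups once batch 6 is included.

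The first comparison asked what LPS did in blood. The comparisons that follow share samples with one another, so they are not independent. UMIs were summed per sample and tested by edgeR's quasi-likelihood method after TMM scaling (which sets the bulk of genes equal between samples), with adjustment by Benjamini and Hochberg over 8478 genes, and all 3 genes rose. The log2 fold change of LPS-primed against PBS-primed PB neutrophils was 1.71 for S100a8 (standard error 0.10, edgeR adjusted p = 2.25e-06), 2.00 for S100a9 (standard error 0.10, edgeR adjusted p = 1.14e-06) and 1.37 for Anxa1 (standard error 0.18, edgeR adjusted p = 0.00108). These are 3.26-, 4.01- and 2.58-fold, and 3.47% of all genes tested passed as higher. By fold the members were far from the top, with S100a9 at place 213, S100a8 at 242 and Anxa1 at 261 of the 294 genes that rose. By p they were at places 8, 10 and 73 of 8478.

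How large these rises are depends on the scaling. With library size alone, which takes the share of all UMIs as the level, the log2 fold changes were 0.79 for S100a8 (edgeR adjusted p = 0.000265) and 1.08 for S100a9 (edgeR adjusted p = 5.73e-05), both still past the threshold that 1.65% of genes passed as higher. Anxa1 was at 0.45 (edgeR adjusted p = 0.142), no longer past it. The 2 scales differ because the median gene moved by -0.11 with TMM and by -1.02 with library size alone. Relative to the median gene, S100a8 moved by 1.82 and 1.80, S100a9 by 2.11 and 2.10 and Anxa1 by 1.48 and 1.46. These pairs of values are nearly equal by construction, since a change of scaling shifts all genes by about the same amount. They therefore do not show that the rises hold on either scale. Once the pair is left out of the totals, as its share alone moves those of other genes, Anxa1 was 0.192% and 0.212% of the remaining UMIs in PBS-primed PB against 0.298% and 0.331% in LPS-primed PB samples (log2 fold change 0.64, edgeR adjusted p = 0.0587). Scaled to the ERCC spike-ins, synthetic RNAs added to every cell, which the deposited annotation gives as a ratio whose denominator is not stated, the changes were 1.52 or 1.13 for S100a8, 1.82 or 1.43 for S100a9 and 1.18 or 0.79 for Anxa1, depending on whether that ratio is read as ERCC over ERCC plus genes or as ERCC over genes, and all 6 values passed. Fewer cells of a type and less RNA per cell cannot be told apart from the sums alone.

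Markers of other cell types moved with this comparison. The 7 monocyte or macrophage markers in the table, of a cell type that also makes S100a8 and S100a9, summed to 294.1 to 642.0 CPM (UMIs of a gene per 1e+06 UMIs) in PBS-primed PB, 1116 to 1287 CPM in LPS-primed PB and 908.3 to 1053 CPM in BM samples, with Cx3cr1 at 0 in 3 of the 4 groups, Ccr2 in 2 and F13a1 in 1. The 6 platelet markers summed to 295.0 to 477.0 CPM in PBS-primed PB and 73.6 to 128.5 CPM in LPS-primed PB and to at most 1.16 CPM in BM samples. The 10 T or NK cell markers in the table summed to 776.4 to 998.0 CPM in PBS-primed PB and 2.19 to 2.55 CPM in LPS-primed PB samples, and the 6 B cell markers to 159.8 to 244.1 and 52.2 to 79.9 CPM. The 8 hepatocyte markers, whose transcripts are abundant in liver, summed to 1624 to 2464 CPM in PBS-primed PB, 922.0 to 949.2 CPM in LPS-primed PB and 1.91 to 15.9 CPM in BM samples, where 3 of the 8 were at 0 in each group. The 6 neutrophil markers other than the members (Ly6g, Csf3r, Cxcr2, Retnlg, Mmp8 and Mmp9) were present in all groups, at 23973 to 24101 CPM in PBS-primed PB, 36305 to 39127 in LPS-primed PB and 43632 to 58238 in BM samples. Without the 14 cells that held lymphocyte transcripts (at least 4 B or at least 4 T or NK cell genes with 2 UMIs or more, 7 of them in these PBS-primed PB samples), the LPS effects were 1.53 for S100a8, 1.82 for S100a9 and 1.17 for Anxa1, with edgeR adjusted p-values of 1.45e-05, 6.06e-06 and 0.00494. The part of the liver, monocyte and platelet transcripts was not tested.

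In marrow LPS moved none of the 3 genes past the threshold. The log2 fold change of LPS-primed against PBS-primed BM neutrophils was -0.31 for S100a8 (standard error 0.09, edgeR adjusted p = 0.486, unadjusted p = 0.0073), -0.36 for S100a9 (standard error 0.10, edgeR adjusted p = 0.397, unadjusted p = 0.00445) and 0.00 for Anxa1 (standard error 0.17, edgeR adjusted p = 1). Only 0.0708% of all genes passed in this comparison (6 genes, against 684 at an unadjusted p under 0.05 and 203 called by DESeq2, none of them a member). The direction for the pair depends on the scale. Scaled to spike-ins the values were 0.34 or 0.15 for S100a8 and 0.29 or 0.10 for S100a9, none past the threshold, while with each cell thinned to 5000 UMIs, which gives every cell the same weight, S100a8 was at -0.47 and passed (edgeR adjusted p = 0.00868).

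Without LPS, blood and marrow differed in all 3 genes. Against PBS-primed BM neutrophils, PBS-primed PB neutrophils had less of all 3 transcripts, with log2 fold changes of -1.51 for S100a8 (standard error 0.10, edgeR adjusted p = 6.85e-06), -1.88 for S100a9 (standard error 0.10, edgeR adjusted p = 2.47e-06) and -2.18 for Anxa1 (standard error 0.18, edgeR adjusted p = 5.8e-05). These are 2.85-, 3.67- and 4.54-fold lower levels, in a comparison where 1.43% of genes passed as lower. With library size alone, where 0.991% passed as lower, the values were -0.99, -1.35 and -1.66 and each gene passed. All 3 genes passed in the same direction in each of the 20 alternative fits of this comparison.

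After LPS the direction of the pair between the tissues turned with the scaling, and that of Anxa1 did not. With TMM, LPS-primed PB exceeded LPS-primed BM neutrophils by 0.51 in S100a8 (standard error 0.09, edgeR adjusted p = 0.012) and 0.49 in S100a9 (standard error 0.10, edgeR adjusted p = 0.0211), where 3.27% of genes passed as higher. With library size alone the values were -0.08 and -0.10 (edgeR adjusted p = 0.592 and 0.554), and with spike-ins -0.60 or -0.38 for S100a8 and -0.61 or -0.40 for S100a9, all 4 past the threshold in the opposite direction. No direction is therefore given for the pair after LPS. Anxa1 was lower in PB, by -0.82 with TMM (standard error 0.17, edgeR adjusted p = 0.0239, where 0.46% of genes passed as lower), by -1.40 with library size alone (edgeR adjusted p = 0.000823, where 1.25% passed as lower) and by -1.92 or -1.70 with spike-ins. The Anxa1 call with TMM was lost without LPS-primed PB sample 1 (-0.73, edgeR adjusted p = 0.102) and without LPS-primed BM sample 1 or 2 (-0.82 and -0.81, edgeR adjusted p = 0.136 and 0.148).

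**Figure D2:**
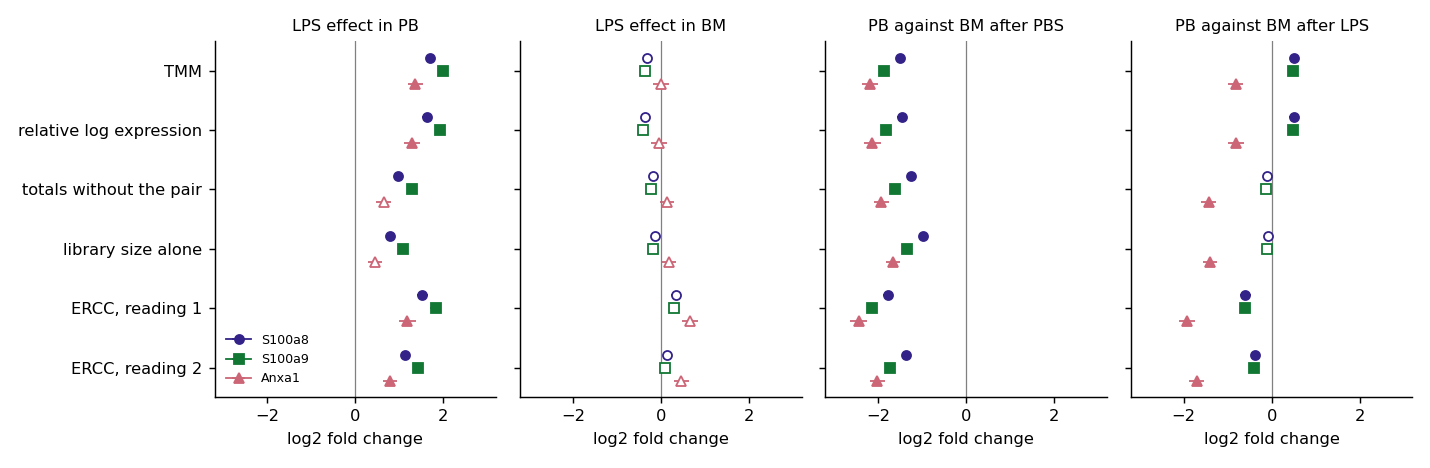
Log2 fold changes (points, horizontal bars the standard error) of S100a8, S100a9 and Anxa1 in 4 comparisons of the 8 labelled samples under 6 ways of scaling, filled where the edgeR adjusted p was below 0.05. ERCC reading 1 takes the deposited ratio over ERCC plus genes and reading 2 over genes, and the right panel shows S100a8 and S100a9 on either side of 0.

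The difference between the LPS effects in blood and marrow was tested as a contrast of its own. It was 2.02 for S100a8 (standard error 0.13, edgeR adjusted p = 1.52e-05), 2.36 for S100a9 (standard error 0.14, edgeR adjusted p = 6.77e-06) and 1.36 for Anxa1 (standard error 0.24, edgeR adjusted p = 0.0162), and 1.45% of genes passed as higher. With library size alone, where 0.531% passed as higher, S100a8 at 0.91 and S100a9 at 1.26 passed (edgeR adjusted p = 0.00208 and 0.000579) and Anxa1 at 0.25 did not (edgeR adjusted p = 0.589). The value for Anxa1 was also lost with spike-ins, with plates of both batches (1.17, edgeR adjusted p = 0.059) and without the cells holding lymphocyte transcripts (1.17, edgeR adjusted p = 0.0619).

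The 2 subunits form a dimer, and on every plate S100a8 exceeded S100a9. The ratio of S100a8 to S100a9 UMIs was 1.97 and 1.93 for PBS-primed PB, 1.55 and 1.62 for LPS-primed PB, 1.57 and 1.47 for PBS-primed BM and 1.55 and 1.59 for LPS-primed BM neutrophils. The PBS-primed PB samples were highest and the 6 others overlapped. The mean log2 ratio was higher in PB than in BM by 0.19 (p = 0.0857 in an exact permutation test over the 8 samples, two-sided, adjusted p = 0.171 over 4 tests), and LPS-primed samples differed from PBS-primed ones of the same tissue by -0.13 (exact permutation p = 0.278, adjusted p = 0.333), an average over tissues in which the mean ratio moved from 1.95 to 1.59 (PB) and from 1.52 to 1.57 (BM). The smallest p that the designs allow is 0.0286 for the first and 0.0556 for the second, which cannot pass 0.05. After adjustment over the 4 tests, neither the first nor the second can pass 0.05, so these tests could not have given a call. In batch 6 the ratio was 1.77 and 1.81 for PBS-primed PB, 1.44 and 1.80 for LPS-primed PB, 1.57 to 1.94 for PBS-primed BM and 1.57 for the LPS-primed BM plate, so that the highest plate there was from marrow and the groups overlapped. The combined share of the pair, by the same tests, differed by -0.61 between PB and BM on the log2 scale (exact permutation p = 0.0571, adjusted p = 0.171) and differed by 0.38 between LPS and PBS within tissues (exact permutation p = 0.333, adjusted p = 0.333). The latter averages over tissues in which the values moved in opposite directions, up in PB and down in BM.

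Every one of the 1421 cells had UMIs of both genes, also at 5000 UMIs per cell, so that detection does not separate the groups and only the level does. The share of S100a8 in a cell ran from 0.304% to 25.5% with a median of 7.64% over the 348 PBS-primed PB neutrophils of both batches, from 3.41% to 38.7% with a median of 15.9% over 363 LPS-primed PB neutrophils, from 3.01% to 39.7% with a median of 18.4% over 439 PBS-primed BM neutrophils and from 1.46% to 40.0% with a median of 16.4% over 271 LPS-primed BM neutrophils. Resting blood held most of the low cells. A share of S100a8 under 5% was found in 27.0% of PBS-primed PB, 4.13% of LPS-primed PB, 0.911% of PBS-primed BM and 0.369% of LPS-primed BM neutrophils, and by plate in 21.4% to 33.0% of the PBS-primed PB cells. The spread between the cells of a plate followed the same order. The coefficient of variation of S100a8 was 52.3% to 59.3% on PBS-primed PB plates, 28.0% to 40.8% on LPS-primed PB plates and 16.7% to 34.7% on BM plates.

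Some of the lowest cells carried transcripts of another cell type. The 14 cells with lymphocyte transcripts had a median S100a8 share of 3.03% (0.391% to 15.1%), against 8.86% in the 425 other cells of the same 5 plates, and their median S100a9 share was 1.42% against 4.63%. These plates include an LPS-primed PB plate. On the PBS-primed PB plates alone, the median S100a8 share was 2.09% in 12 such cells and 7.76% in 336 others. Of the 425 other cells, 2 were below the lowest of the 14 for S100a8 and 2 for S100a9. Lymphocytes are not known to make calprotectin, and what part of these shares came from RNA outside the cell was not tested. All of the 95 well names recur on several plates, since they are positions, and 0 cells had a column equal to that of another cell.

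Within a plate the levels of the subunits varied together. Over the cells of a plate the log2 shares of S100a8 and S100a9 (0.001% added) had a Pearson r of 0.84 to 0.95 on the 4 PBS-primed PB plates, 0.82 to 0.90 on the 4 LPS-primed PB plates and 0.41 to 0.90 on the 9 BM plates. These are descriptions over 44 to 95 cells that share a library, and each share has the same total in its denominator. Anxa1 followed the pair loosely, with r of -0.18 to 0.63 against S100a8 and -0.10 to 0.63 against S100a9. In a single cell the ratio of S100a8 to S100a9 had a median of 1.93 for PBS-primed PB, 1.65 for LPS-primed PB, 1.77 for PBS-primed BM and 1.62 for LPS-primed BM neutrophils, and the values of single cells overlapped between all groups.

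**Figure D3:**
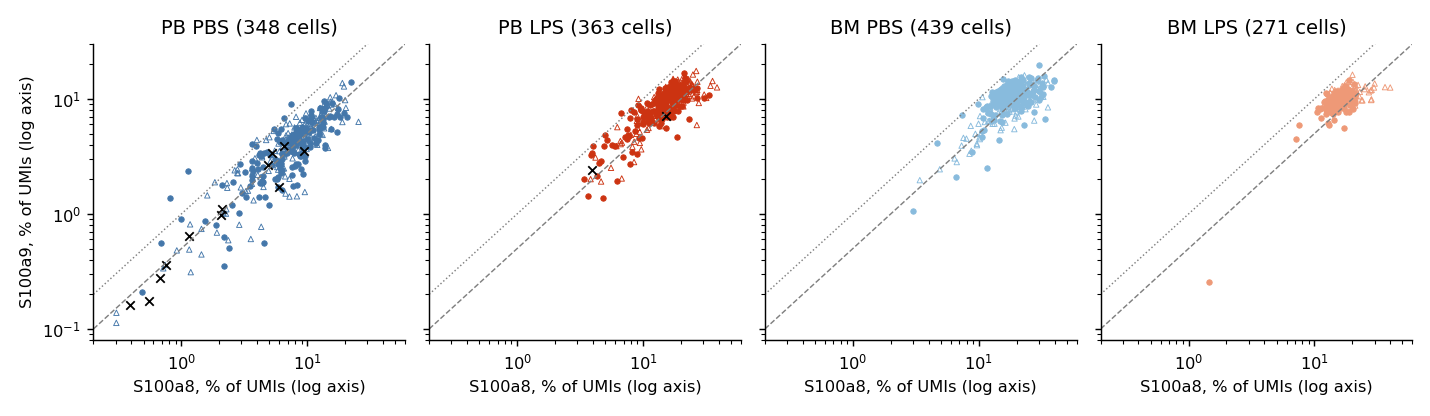
Share of UMIs (%) of S100a9 against S100a8 in every cell of the 4 groups, on log axes, with filled circles for the labelled samples, open triangles for batch 6 and black crosses for the 14 cells with lymphocyte transcripts. The dotted line marks equal shares and the dashed line a ratio of 2, and the PBS-primed PB cells reach lowest, with a median S100a8 share of 7.64%.

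Anxa1 was uneven from cell to cell. The median share was 0.0734% for PBS-primed PB, 0.115% for LPS-primed PB, 0.472% for PBS-primed BM and 0.525% for LPS-primed BM neutrophils, and the highest cell reached 1.54%, 1.35%, 2.67% and 2.17%. Cells with at least 0.5% of their UMIs in Anxa1 made up 8.89% and 5.81% of PBS-primed PB, 9.89% and 15.1% of LPS-primed PB, 34.9% and 37.0% of PBS-primed BM and 47.3% and 54.3% of LPS-primed BM neutrophils, by sample. The 95% exact Clopper-Pearson intervals of the PB samples reached up to 24.5% and those of the BM samples down to 24.8%, and cover only the sampling of cells within a library, not the spread between samples. On the batch 6 plates they made up 3.41% and 13.1%, 5.26% and 4.40%, 38.6% to 67.0%, and 58.0%. Each PB plate had a smaller share of such cells than each BM plate.

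A few cells carried much of the Anxa1 signal, in blood and in marrow. The 9 or 10 cells of a sample with the most Anxa1 UMIs, whatever their depth, held 46.9% and 60.6% of all Anxa1 UMIs for PBS-primed PB, 55.4% and 52.9% for LPS-primed PB, 56.7% and 59.6% for PBS-primed BM and 41.6% and 42.1% for LPS-primed BM neutrophils. In PBS-primed PB sample 2 only 2 of 86 cells held 38.0%. By comparison the same number of cells, ranked by UMIs of the gene in question, held 25.6% to 36.3% of the S100a8 UMIs and 26.3% to 40.9% of the S100a9 UMIs over the 8 samples. At the deposited depth 6 of 90 and 4 of 86 PBS-primed PB cells, 0 of 91 and 2 of 86 LPS-primed PB cells and 0 cells of the 4 BM samples had no Anxa1 UMI. With each cell thinned to 5000 UMIs, a UMI was found in 74.4% and 73.3% of PBS-primed PB cells, 84.6% and 79.1% of LPS-primed PB cells, 90.4% and 97.8% of PBS-primed BM cells and all cells of both LPS-primed BM samples. The 14 cells with lymphocyte transcripts had a median Anxa1 share of 0.0155%, against 0.0744% in the other cells of their plates, at median depths of 80752 and 50486 UMIs.

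**Figure D4:**
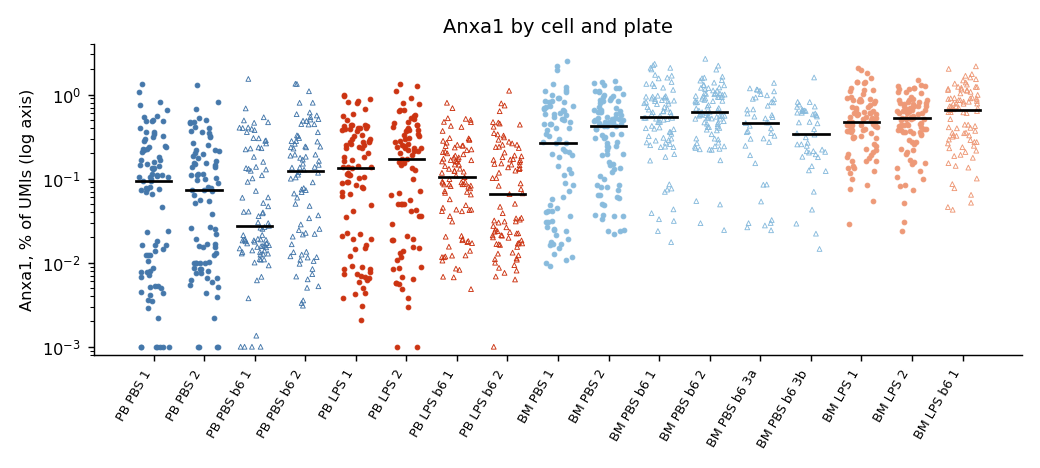
Share of UMIs (%) of Anxa1 in every cell of the 17 plates, on a log axis, with filled circles for labelled samples, open triangles for batch 6 plates (b6), black lines at the plate medians and cells without a UMI drawn at 0.001%. All BM medians lie above all PB medians, and on every PB plate the cells spread from under 0.01% to over 0.5%.

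In the clusters that the authors deposited, the members varied inside tissues as well. These clusters were made from the same cells, so the values are descriptions without a test. In LPS-primed PB sample 1, 48 cells of cluster 1, the cluster of nearly all PBS-primed PB cells, had median shares of 12.7% S100a8, 7.78% S100a9 and 0.218% Anxa1, and 42 cells of cluster 2 had 14.1%, 9.13% and 0.0643%. In sample 2, 35 cells of cluster 1 had 14.3%, 7.55% and 0.212%, and 42 cells of cluster 2 had 16.1%, 9.88% and 0.130%. In both samples cluster 2 was higher than cluster 1 for the pair and lower for Anxa1. Sample 2 also held 9 cells of cluster 0, with medians of 22.4%, 9.81% and 0.275%. In batch 6, 94 of 95 cells on LPS-primed PB plate 1 and all 91 on plate 2 lay in cluster 2. The comparison of clusters 1 and 2 after LPS thus rests on the labelled samples. Among PBS-primed BM neutrophils, 7 and 6 cells lay in cluster 1, with median S100a9 shares of 9.06% and 6.03% against 10.5% and 11.7% in cluster 0, and Anxa1 shares of 0.0167% and 0.0720% against 0.310% and 0.433%. S100a8 was lower there as well, in sample 2 with a median of 9.21% against 18.3%.

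The level of a gene over the 8 samples can be matched with those of all others. Among 2268 genes with a mean of at least 50 CPM, S100a8 and S100a9 were each other's closest gene (Pearson r of log2 TMM-scaled CPM 0.997), and Actb, Glrx, Wfdc21 and Lcn2 filled the next 4 places of both, with r of 0.984 to 0.991. Lcn2, which encodes the iron-withholding granule protein lipocalin 2, was at 1209 and 1223 CPM in PBS-primed PB and 18291 and 20848 CPM in LPS-primed PB samples as a share of UMIs. Closest to Anxa1 were Adpgk (0.993), Cd177 (0.986), Plxnc1 (0.982), Kmt5a (0.982) and Pglyrp1 (0.980). Cd177 encodes a neutrophil surface glycoprotein and Pglyrp1 a granule protein that binds peptidoglycan. Anxa1 stood at place 151 for S100a8 (r 0.812) and 122 for S100a9 (r 0.846). With 8 samples in 4 groups, these r values follow the group means and carry no test.

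The other S100 genes and annexins were counted as families. Of 16 other S100 genes listed, 11 were in the table and 7 were tested, and LPS in PB raised 2 and lowered 0 of them. In that comparison 3.47% of all genes passed as higher. S100a6 rose by 0.96 (standard error 0.17, edgeR adjusted p = 0.00832) and S100a11 by 0.71 (standard error 0.16, edgeR adjusted p = 0.0284), but with library size alone they were at 0.05 and -0.21 and neither passed. The median of the 7 was 0.33, against -0.11 for all genes. Between resting PB and BM 1 of the 7 was lower, S100a6 (-0.84, edgeR adjusted p = 0.0223), but with library size alone S100a6 was not called (-0.32, edgeR adjusted p = 0.297) and 1 of the 7 was higher and 0 lower. Of all genes, 1.43% passed as lower with TMM, and 2.5% as higher and 0.991% as lower with library size alone. S100a11, at 4160 to 6551 CPM, and S100a6, at 2954 to 4170 CPM, were the most abundant of the other S100 genes, the rest of which reached at most 221.6 CPM, while S100a8 was at 80376 CPM or more in the 8 labelled samples. S100a4 was not tested, with 0 UMIs in 6 of the 8 samples. Of 11 other annexins listed, 8 were in the table and 7 were tested, and LPS in PB raised 2 and lowered 0 (3.47% of all genes passed as higher) with a median of 2.39. Scaled by library size alone, 1 rose (1.65% of all genes passed as higher), the median was 1.48 and Anxa7 was not called (1.48, edgeR adjusted p = 0.180). Anxa3 rose by 5.83 (standard error 0.82, edgeR adjusted p = 0.00205), from 1.78 and 12.3 CPM to 122.4 and 284.8 CPM, and Anxa7 by 2.39 (standard error 0.58, edgeR adjusted p = 0.0479). Anxa3 was also the only annexin besides Anxa1 called between resting PB and BM, at -5.57 (edgeR adjusted p = 0.00406). Anxa2, the annexin nearest to Anxa1 in level, had 1410 to 1986 CPM in all 8 samples and passed in none of the comparisons. In marrow LPS moved 0 of the 7 tested genes of either family past the threshold, where only 0.0708% of all genes passed.

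Some receptors of calprotectin and annexin A1 were among the genes that rose with LPS in blood. Of 11 listed, 10 were in the table and 8 were tested, of which 4 rose and 0 fell in PB, where 3.47% of all genes passed as higher (median 1.83, against -0.11 for all genes). Fpr2, a receptor of annexin A1, rose by 2.93 (standard error 0.33, edgeR adjusted p = 0.000452), from 210.0 and 441.3 CPM to 1210 and 1404 CPM, and passed with library size alone as well (2.00, edgeR adjusted p = 0.00613). Fpr1 rose by 2.12 (edgeR adjusted p = 0.00392), Cd14, the co-receptor of Toll-like receptor 4, by 4.51 (edgeR adjusted p = 0.00424), and Cd33 by 1.75 (edgeR adjusted p = 0.0316). Of these, Cd14 but neither Fpr1 nor Cd33 passed with library size alone. Tlr4 itself had 23.4 to 129.6 CPM and was not called in PB. In marrow 0 of the 8 passed after LPS, where only 0.0708% of all genes passed, with Fpr2 at 0.68 and Fpr1 at 0.33.

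Most granule genes that neutrophils transcribe as they mature moved in the direction of the pair in blood. Of 16 listed, 15 were in the table and 12 were tested. In PB after LPS 11 rose and 0 fell, with a median of 4.16, where 3.47% of all genes passed as higher. Without LPS 12 of 12 were lower in PB than in BM, with a median of -4.16, where 1.43% passed as lower. Camp, which encodes the antimicrobial peptide cathelicidin, rose by 7.59 and Ltf, which encodes lactoferrin, by 8.90 in PB (edgeR adjusted p = 3.24e-07 and 3.79e-07), against 1.71 and 2.00 for S100a8 and S100a9. With library size alone 9 of the 12 rose and 1 fell, where 1.65% of all genes passed as higher and 3.14% as lower. In marrow LPS raised 0 and lowered 1, Lyz2 (-1.12, edgeR adjusted p = 0.0421), where 0.0472% of all genes passed as lower. Of the 6 NADPH oxidase genes, 3 rose in PB with TMM, Cybb by 5.11, Rac2 by 0.82 and Ncf4 by 1.19 (edgeR adjusted p = 3.24e-07, 0.0316 and 0.0435), against 3.47% of all genes. By library size alone 1 rose and 1 fell, where 1.65% of all genes passed as higher and 3.14% as lower. Cybb is in both lists.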

How the data were processed

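Single neutrophils were processed by the authors from SCRB-seq reads, which were trimmed with Cutadapt 1.15, aligned to mm9 with STAR 2.6.0a, deduplicated by UMI and quantified with HTSeq 0.11.2, and cells were filtered on genes, UMIs and spike-ins. The deposited values are raw UMI counts per gene and cell, and the deposited annotation gives a spike-in ratio and a cluster per cell. Which gene models were counted is not given in the sources used here. The counts hold 0 spike-in rows, so the spike-in scaling rests on that ratio.

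Cells whose names match a labelled sample (711) were summed per sample, and those of batch 6 per plate. In batch 6, 2 sets of PBS-primed BM cells share 42 well names and were summed as 1 plate for the test over both batches. Whether they come from 1 plate is not stated, and elsewhere they are counted as separate plates. Genes with a UMI in at least 10 cells (9919) were tested with edgeR 4.0.16 in R 4.3.3 (filterByExpr, TMM, estimateDisp with a common dispersion of 1.06, glmQLFit, glmQLFTest) in 1 model of the 4 groups, with contrasts for each comparison. The standard errors given are the absolute log2 fold change divided by the square root of the F statistic. Tests are two-sided, at an adjusted p of 0.05 over all genes tested. Single values were tested with exact permutation tests, on the log2 scale (70 divisions between the tissues, 36 arrangements of LPS and PBS within them). Alternatives were other scalings, DESeq2 1.42.0, no filter, thinning to 5000 UMIs, the replicate number as a block, both batches with batch as a term, and leaving out each sample, which leaves a lone sample assumed to vary like the others. Doublets were not called, since cells were picked singly. The fits were tested on simulated data.

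The 3 genes, the gene lists and the alternatives were chosen with earlier results of these data known. Of each list, up to 4 called genes of 50 CPM or more are named, by smallest p, or, if none was called, the 2 of highest CPM. Tlr4, S100a4 and the highest S100 genes and annexins named for their level were chosen after their values were seen. Promoter sequences are from RefSeq (3 of 3 genes matched) and gene positions from GENCODE M1.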

Additional observations from a re-analysis of the deposited data

Results flagged for a closer look

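The effect of LPS differed between blood and marrow for all 3 genes, by a contrast that tested the difference itself. For S100a8 the difference was 2.02 on the log2 scale (edgeR adjusted p = 1.52e-05), for S100a9 it was 2.36 (edgeR adjusted p = 6.77e-06) and for Anxa1 1.36 (edgeR adjusted p = 0.0162). Both samples of LPS-primed PB were above both samples of PBS-primed PB for every one of the genes as shares of UMIs, which only describes 2 samples against 2. On the batch 6 plates LPS-primed PB was above PBS-primed PB for S100a8 and S100a9, but lay between the PBS-primed plates for Anxa1. In BM both LPS-primed samples were below both PBS-primed ones for S100a8 and S100a9 and above them for Anxa1 as shares, and with TMM scaling the Anxa1 levels of the BM groups overlapped. The LPS-primed BM plate of batch 6 was below the PBS-primed BM plates for S100a8 and inside their range for S100a9 and Anxa1. For Anxa1 the difference was 0.25 and not past the threshold with library size alone (edgeR adjusted p = 0.589). That call was also lost with totals without the pair, with either reading of the spike-ins, with both batches, without the cells holding lymphocyte transcripts, and when PBS-primed PB sample 1 or 2 or LPS-primed BM sample 1 or 2 was left out, with differences of 0.32 to 1.38 over these fits. No group has enough samples for a test of single outlying samples.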

How the results depend on the processing

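Of 188 values recomputed under another setting, 151 kept their direction and side of the threshold, 19 reversed, 15 lost and 3 gained the call. In this count the permutation results were judged on the exact p before adjustment, and the edgeR and DESeq2 results on the adjusted p. Every setting kept the LPS effects in PB and the differences of LPS effects for S100a8 and S100a9, and PB against BM after PBS for all 3 genes. PB against BM after LPS became, for S100a8 and S100a9 in turn, -0.079 and -0.097 with library size alone, -0.10 and -0.12 with totals without the pair, -0.60 and -0.61 or -0.38 and -0.40 with spike-ins and -0.0090 and -0.031 with both batches and library size alone. It was no longer called at 0.51 and 0.49 with DESeq2, at 0.19 and 0.15 with thinning, nor for S100a9 with both batches (0.56). The LPS effect in BM turned to 0.34 or 0.15 (S100a8) and 0.29 or 0.10 (S100a9) with spike-ins, and that of S100a8 was called at -0.47 with thinning. For Anxa1 the LPS effect in PB was no longer called with library size alone (0.45), totals without the pair (0.64) or both batches with library size alone (0.23). Its difference of LPS effects was no longer called at 0.25, 0.50 and 0.13 under the same settings, 0.52 or 0.32 with spike-ins, 1.17 with both batches and 1.17 without cells holding lymphocyte transcripts. Its LPS effect in BM, near 0, changed sign with relative log expression factors (-0.033), no filter (-0.018), DESeq2 (-0.033), both batches (-0.016) and without those cells (-0.00438). The pair's share in PB against BM was -0.76 as the median over cells and -0.74 with thinning, where the exact permutation p was 0.0286, the smallest possible. That p is before adjustment, and only on it are these counted as gained. Except where the setting itself drops data, the cause was not tested. Leaving out those cells and the fit of both batches with library size alone were chosen after the data were seen.

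Leaving out 1 sample at a time gave 0.14 to 0.25 for the ratio in PB against BM and -0.78 to -0.44 for the pair's share. After LPS, PB against BM ranged from 0.37 to 0.63 for S100a8 and 0.38 to 0.58 for S100a9, both lost without LPS-primed PB sample 2 or either LPS-primed BM sample, and from -0.93 to -0.73 for Anxa1. The LPS effect in BM ranged from -0.18 to 0.21 for Anxa1, and its difference of LPS effects from 1.16 to 1.55, lost without either PBS-primed PB or either LPS-primed BM sample.

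The replicate number did not pair the samples (r of the deviations -0.02 to 0.00). With it as a block, the LPS effects in PB were 1.70, 2.00 and 1.36 for S100a8, S100a9 and Anxa1, no call of the 3 genes changed, and 374 genes were called against 334, and 13 against 6 in BM. Depth limits Anxa1 in single blood cells, whose median count was 13.5 to 62.5 UMIs in the labelled PB samples.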

Other observations

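Glucocorticoids induce annexin A1, and other genes that they are known to induce were listed with their receptor. Of 14 listed, 13 were tested, and 6 were higher and 0 lower in LPS-primed PB than in LPS-primed BM neutrophils (median log2 fold change 3.09, against -0.07 for all genes, of which 3.27% passed as higher). Dusp1, which encodes a phosphatase of MAP kinases, was at 2007 and 1991 CPM in LPS-primed PB and 152.7 and 112.2 CPM in LPS-primed BM samples (4.50, edgeR adjusted p = 2.11e-05), and Tsc22d3, which encodes the glucocorticoid-induced leucine zipper, at 434.0 and 390.5 against 49.9 and 25.0 CPM (4.04, edgeR adjusted p = 0.000514). The others named by the same rule were Il1r2 (3.09, edgeR adjusted p = 0.00106) and Zfp36 (1.40, edgeR adjusted p = 0.00991). With library size alone 3 of the 13 passed as higher, where 1.85% of all genes did. The log2 fold change with LPS in marrow was -2.67 for Dusp1 and -2.90 for Tsc22d3 (edgeR adjusted p = 0.00577 and 0.0444), where 0.0472% of all genes passed as lower. In blood LPS raised 1 of the 13, Il1r2 (3.11, edgeR adjusted p = 0.000837), where 3.47% of all genes passed as higher. The median of the 13 was 0.81, against -0.11 for all genes. With library size alone that median was -0.16, against -1.02 for all genes.

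Of the phospholipase A2 pathway, which annexin A1 is known to restrain, 14 genes were listed and 9 tested. LPS raised 0 and lowered 0 of them in PB and in BM, with the most abundant, Alox5ap, at 0.57 in PB (edgeR adjusted p = 0.103). Of all genes, 3.47% passed as higher and 0.472% as lower in PB, and 0.0708% passed in BM, so 0 of 9 is near those shares. Without LPS 2 were lower in PB than in BM, Lta4h (-4.91, edgeR adjusted p = 0.00832) and Alox5 (-1.76, edgeR adjusted p = 0.0402), which take part in making leukotrienes, where 1.43% of all genes passed as lower. Scaled by library size alone, 1 was lower and 1 higher, the median turned from -0.33 to 0.19, and Alox5 was not called (-1.23, edgeR adjusted p = 0.117). After LPS Pla2g7 was higher in PB (2.83, edgeR adjusted p = 0.00817) and Lta4h lower (-3.21, edgeR adjusted p = 0.0383), where 3.27% of all genes passed as higher and 0.46% as lower.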
